A study of Rattus norvegicus with 2 samples.

Results

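Ion channel subunits were examined in rat sympathetic neurons on 2 oligonucleotide arrays, 1 for each culture condition. The members are the genes whose symbol names a voltage-gated sodium channel subunit (Scn), a potassium channel subunit (Kcn), a voltage-gated calcium channel subunit (Cacna, Cacnb, Cacng) or a pacemaker channel (Hcn). They were found by symbol among probe sets that the platform annotation assigns to exactly 1 gene. The rule uses no measured value, but it was written with earlier results of these data known. The rule gave 112 genes, measured by 158 probe sets, of 10411 genes and 12783 probe sets in all. Each gene is given by its brightest probe set, the one with the highest mean intensity of both arrays.

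One array held RNA of sympathetic neurons cultured without myocytes (neurons alone in the plots). The title and source name of the second sample give it as sympathetic neurons cultured with myocytes, their muscle target (neurons from co-culture in the plots). Below, values are given as without and with myocytes. The description field, which is the same for both samples, names neurons grown alone, a conflict that was not settled here. If it held for the second sample, all values below would compare 2 arrays of neurons grown alone. Per the labels' protocols, neurons were lifted off with EDTA from dishes that held myocytes or other flat cells, and markers of such cells are given below. The sources used here name no strain, age of the animals or days in culture. The series asked which genes accompany the stop in growth of neurons that have met their target. With 1 array per condition there is no replicate check, no test was run, and each value compares these 2 arrays and not the conditions.

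Voltage-gated channels open and close with the membrane potential. Sodium channels carry the rising phase of the action potential, potassium channels end it and set the resting potential, and calcium channels couple it to transmitter release. Each channel has pore-forming alpha subunits, and many have auxiliary subunits that set how many channels reach the membrane and how they gate. Sympathetic neurons are known for N-type calcium current at their terminals, for the M-current of Kcnq subunits that restrains repetitive firing, and for A-type potassium current.

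Most members had a low signal. Of the 112 genes, 12 were at or above the median intensity of their array in both arrays (185.7 without myocytes, 175.0 with myocytes), 2 only without myocytes, none only with myocytes, and 98 in neither. The 14 genes at or above a median in at least 1 array, called above the signal filter here, made up 12.5% of the members. Over all genes on the array the share was 61.2%. Without myocytes, 43.8% of the members lay below the 25th percentile of the array, as did 18.2% of all genes, and 2.68% lay above the 75th percentile, as did 30.6% of all genes. The brightness of a probe set also depends on its own probes. For that reason no gene's level is compared with another gene's, the array medians and percentiles only sort probe sets by signal, and a gene below the median is not shown to be silent.

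**Figure D1:**
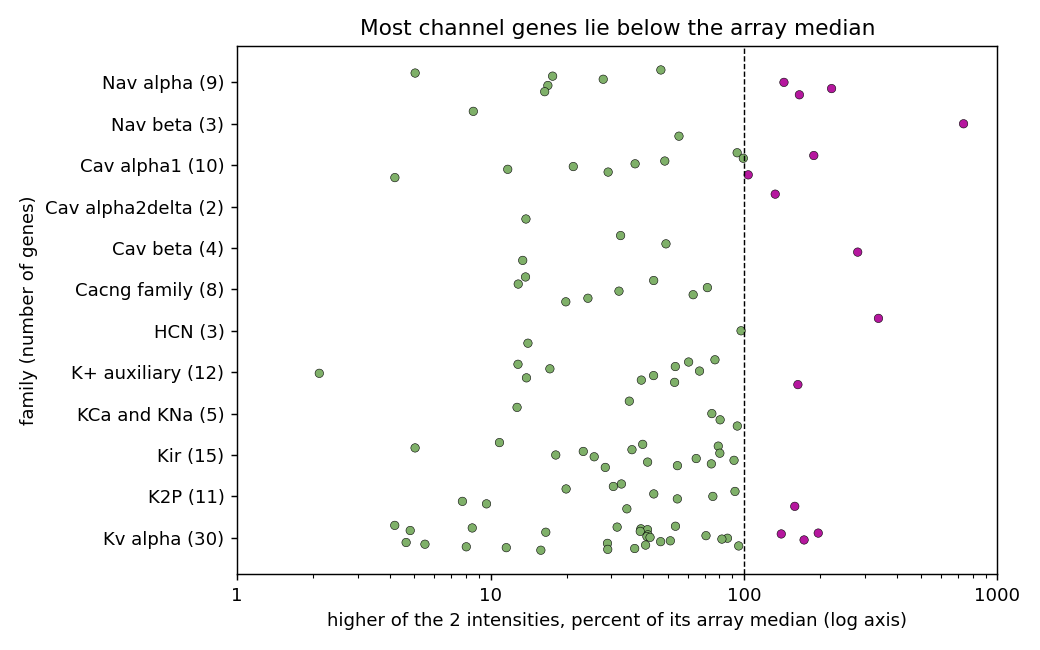
The higher of the 2 intensities of each of 112 channel genes, as a percent of the median of its array (x axis, log scale), by family (y axis, number of genes in brackets). Each point is 1 gene, the dashed line is 100%, and points to the right of it are the 14 genes above the signal filter; no point of the inward rectifier (Kir), calcium- and sodium-activated (KCa and KNa) or Cacng family lies there.

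The 14 genes above the filter were spread over the families. They comprised 3 of 9 sodium channel alpha subunits, 1 of 3 sodium channel beta subunits, 2 of 10 calcium channel alpha1 subunits, 1 of 2 alpha2delta, 1 of 4 calcium channel beta subunits and 1 of 3 pacemaker channels. Among potassium channels they were 3 of 30 voltage-gated alpha subunits, 1 of 11 two-pore channels and 1 of 12 auxiliary subunits. None of 15 inward rectifiers, 5 calcium- or sodium-activated channels and 8 genes of the Cacng family passed. The member nearest above the filter was Cacna1i, at 104% of the median without myocytes, and the nearest below was Cacna1c, at 99.4%.

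Of the 14, 13 were dimmer with myocytes and 1 was brighter (over all genes above the filter, 52.7% and 47.3%). Intensities under a floor of 39.6, the pooled 20th percentile, were set to it before taking log2. The median log2 ratio, with over without myocytes, was -0.34, against -0.01 for all 6368 genes above the filter. At least 1.5-fold lower were Cacnb3, Hcn2, Scn3a and Kcnk6, 28.6% of the 14, where 3.3% of all genes above the filter were that much lower. The 13 became 12 under quantile normalization, median scaling and lowess, where 47.2%, 38.7% and 48.5% of all genes above the filter were lower, and 14 under scaling to the spiked controls, where 62.7% were. No member above the filter was 1.5-fold higher (1.93% of all genes above the filter). Under scaling to the array medians, which moved the median of all genes up by 0.09, those background shares became 2.2% lower and 2.98% higher, and 3 members were still 1.5-fold lower. Cacnb3 alone was past 2-fold (0.628% of all genes above the filter were 2-fold lower), and it fell short of that under median scaling (-0.99) and with a pseudocount (-0.97). Because 2 of the 14, Scn3a and Cacna1i, passed the filter through the array without myocytes only, they could only be lower. Among the 12 at or above the median in both arrays, 11 were lower and 3 at least 1.5-fold lower, beside 53% and 2.12% of all such genes, and the median log2 ratio was -0.27. The 10 of the 14 that were short of 1.5-fold lower had a median of -0.21, with 9 lower. This set was cut by the ratio itself and holds Cacna1i, and all genes were not cut in the same way. It is a description and no separate support.

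The neurons' own markers were lower in the same array. All 11 measured sympathetic neuron markers were dimmer with myocytes, with log2 ratios from -1.34 for Slc6a2, the noradrenaline transporter, to -0.12 for Prph, a neuronal intermediate filament, and a median of -0.36. Of the 14 channel genes, 7 lay below that median and 7 above it, and 12 lay within the range of the markers. Scn3a and Cacna1i, which could only be lower, were among the 7 below the median. Slc6a2 alone sets the lower end of that range. The next marker is Snap25, a protein of synaptic vesicle fusion, at -0.62, and without Slc6a2 the number within the range is 8, with Cacnb3, Hcn2, Scn3a and Kcnk6 below it. The 2 above the range, Cacna2d1 and Scn7a, were nearer to 0 than any marker. The share of all genes above the filter within the range, with or without Slc6a2, was not counted. These counts therefore do not set the channel genes apart from other genes. The summed intensity of the neuron markers was 36860.0 without myocytes and 29481 with myocytes, while that of 11 fibroblast and smooth muscle markers was 37780 and 41758. All of the latter were above the filter, and 8 were higher and 3 lower with myocytes. For 11 cardiac myocyte markers, 4 above the filter, the sums were 1168 and 1646 (7 higher, 2 lower, 2 under the floor in both arrays), and for 7 Schwann and satellite glia markers, 6 above the filter, 5608 and 5933. Myl2, a ventricular myosin light chain, had 44.8 without and 134 with myocytes, and Tnnt2, cardiac troponin T, 293 and 408. Of 5 macrophage markers 4 were above the filter, with sums of 1133 and 1028. None of 3 endothelial markers was above it, and Kdr and Pecam1 were under the floor in both arrays. No measured marker of any list had a deposited intensity of 0. The sums add different probe sets, so the brightest weigh most. The part of these cells in the channel values was not tested, and in RNA from a mixed preparation fewer neurons and less RNA of a gene per neuron cannot be told apart.

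**Figure D2:**
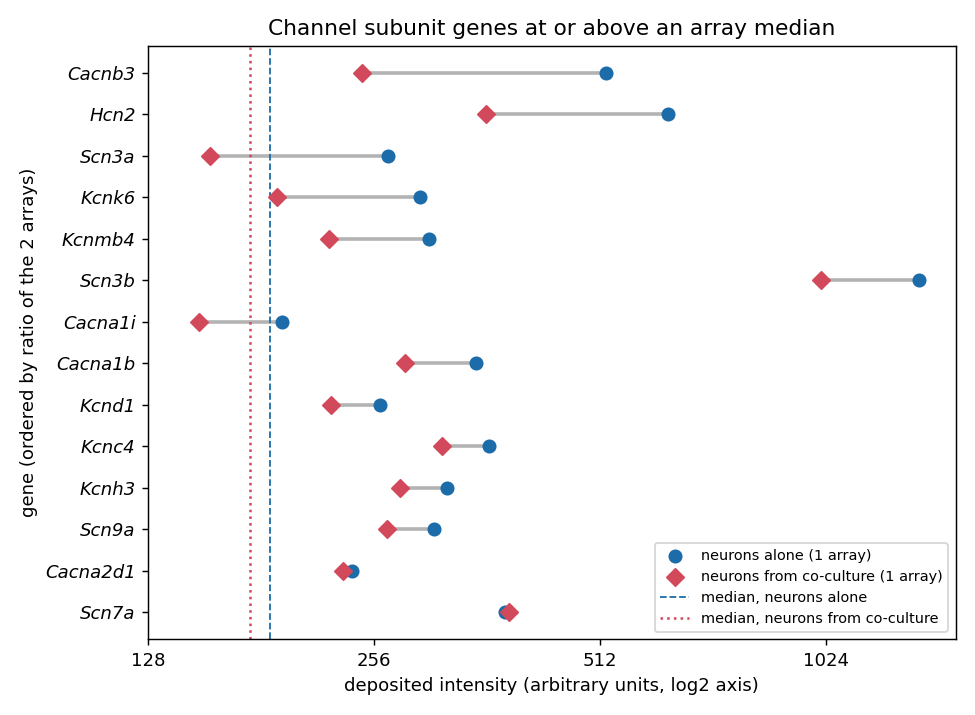
Deposited intensity (x axis, log2 scale) of the 14 channel genes above the signal filter in neurons alone (circles) and neurons from co-culture (diamonds), 1 array each, ordered by their ratio. The vertical lines are the array medians of 185.7 and 175.0; the diamond lies left of the circle for all but Scn7a, and the gap is widest for Cacnb3.

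The bases before the start of 3 of the 4 members at least 1.5-fold lower are shown because these genes had the lowest ratios above the filter. They were taken from RefSeq promoters of the GRCr8 build, which held 77 of the 112 members. Each run is the 250 bases before the annotated start, written 5′ to 3′ on the strand of the gene, with GC boxes (GGGCGG or its complement CCGCCC, the site bound by Sp1) in capitals.
Cacnb3, chr7:131666301-131666550, plus strand: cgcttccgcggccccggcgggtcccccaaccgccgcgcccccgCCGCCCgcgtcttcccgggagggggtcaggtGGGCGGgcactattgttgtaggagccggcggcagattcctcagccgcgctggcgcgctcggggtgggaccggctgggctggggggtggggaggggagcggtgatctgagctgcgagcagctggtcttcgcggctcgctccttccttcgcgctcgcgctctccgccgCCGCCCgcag
Hcn2, chr7:10639458-10639707, minus strand: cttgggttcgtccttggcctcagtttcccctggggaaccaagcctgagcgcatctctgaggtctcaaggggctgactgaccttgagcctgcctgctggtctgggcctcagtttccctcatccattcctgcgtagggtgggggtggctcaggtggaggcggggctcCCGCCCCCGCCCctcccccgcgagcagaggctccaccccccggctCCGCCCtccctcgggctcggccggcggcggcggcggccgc
Scn3a, chr3:70666199-70666448, minus strand: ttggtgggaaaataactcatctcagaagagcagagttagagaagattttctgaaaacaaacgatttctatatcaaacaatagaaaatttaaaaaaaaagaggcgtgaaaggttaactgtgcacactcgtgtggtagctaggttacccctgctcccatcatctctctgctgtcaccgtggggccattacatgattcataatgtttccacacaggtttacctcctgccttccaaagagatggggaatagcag

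The promoters differ in base composition. That of Cacnb3 is 76.4% G and C with 35 CpG pairs and 3 GC boxes, and that of Hcn2 is 71.6% G and C with 18 CpG pairs and 3 GC boxes. That of Scn3a is 41.6% G and C, with 4 CpG pairs and no GC box. Over the 33469 promoters of the table, cut to the same 250 bases, the median was 51.2% with 5 CpG pairs, and 30.5% held a GC box on either strand. Of the 77 members with an entry 53.2% held one, with a median of 62.8% G and C. Each member was given by a single promoter, while the promoters of the table were not reduced to a single entry per gene. Because fewer than 80% of the members have an entry, a comparison of the members with all promoters is void. The letters TGACGTCA (the cAMP response element, in 1.59% of all promoters), CACGTG (an E-box, 5.59%), CCAAT (34.02%), TATAAA (12.9%), CAGCACC (5.43%) and GGACAGC (5.30%) were searched on both strands too. The last 2 are parts of the RE1 element bound by REST, a repressor of neuronal genes. None of these was found in the 3 windows shown, which says only that the letters are not there.

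Among calcium channels, the auxiliary beta subunit differed most. Cacnb3 encodes the beta-3 subunit, which brings alpha1 subunits to the membrane and is a partner of the N-type channel in peripheral neurons. Its intensity was 522 without myocytes and 247 with myocytes, 2.12-fold lower, a log2 ratio of -1.08. The spread of a single probe set, taken from genes of like signal with several probe sets, was 0.29 (SD of the log2 ratio), and Cacnb3 has only 1 probe set here. It stayed between -1.15 and -0.97 under every alternative run.

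The N-type pore subunit itself was closer in the 2 arrays. Cacna1b had 350.2 without myocytes and 281 with myocytes, 1.24-fold lower (log2 ratio -0.32, within the SD of 0.36 of a probe set at this signal), and its other probe set, below the filter, had 137 and 131 (-0.06). Cacna2d1, the alpha2delta-1 subunit that carries the gabapentin site and promotes surface expression, had 239 and 232. Its log2 ratio of -0.04 was 0.04 under quantile normalization, median scaling and lowess. Cacna1i, a low-threshold T-type pore, had 193 and 149 (-0.37), and was below the median with myocytes.

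No other calcium channel gene passed the filter. The P/Q-type pore Cacna1a, which shares transmitter release with the N-type channel at many synapses, had 175 without myocytes and 104 with myocytes, 1.68-fold lower (-0.75). Its 4 probe sets were all below the filter, and 3 of them were lower (-0.75, -0.63 and -0.61), the other being under the floor in both arrays. The L-type pore Cacna1c had 185 and 148 (-0.31), with -0.38 on its other probe set. Cacna1d, the other neuronal L-type pore, had 65.5 and 85.2 (0.38). The R-type pore Cacna1e had 64.3 and 65.1, and the T-type pores Cacna1g and Cacna1h had 21.7 and 13.2, and 54.1 and 33.0. Cacna1s and Cacna1f, the L-type pores of skeletal muscle and retina, had 7.79 and 5.12, and 39.4 and 25.2, both under the floor.

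None of the other 3 beta subunits was above the filter. Cacnb1 had 36.4 without myocytes and 57.0 with myocytes, and Cacnb2 79.4 and 86.1 (0.12), though its next probe set gave 90.4 and 68.1 (-0.41). Cacnb4 was under the floor in both arrays. The Cacng family is made up of skeletal muscle gamma subunits and of regulators of AMPA receptors. In it 4 of 8 genes were lower, 1 was higher and 3 were under the floor in both arrays. Among all genes below the filter 45.1% were lower and 24.7% higher. Nearest to the filter were Cacng4 (133 without myocytes, 106 with myocytes) and Cacng6 (117 and 79.8).

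The pacemaker channel Hcn2 had the next lowest ratio after Cacnb3 among members above the filter. HCN channels open on hyperpolarisation, are tuned by cyclic AMP and carry an inward current that depolarises the cell. Hcn2 had 630.2 without myocytes and 361 with myocytes, 1.75-fold lower (log2 ratio -0.80, range -0.87 to -0.72 over the alternatives, SD of a probe set 0.29). Hcn3 went the other way at 153 and 170.4 (0.16), below both medians. Hcn4, the main pacemaker channel of the sinus node, had 26.1 and 10.8, under the floor in both arrays.

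The sodium channel members above the filter were the pores Scn3a, Scn9a and Scn7a and the beta subunit Scn3b. Scn3a encodes Nav1.3, known from developing and injured neurons. It had 267 without myocytes and 155 with myocytes, 1.73-fold lower (-0.79, SD of a probe set 0.36). Scn9a, which encodes Nav1.7, the main sodium channel of sympathetic and pain-sensing neurons, had 307 and 267 (1.15-fold lower, -0.21). Scn3b encodes a beta subunit that alters sodium channel gating and surface level. It had 1365 and 1009.6 (1.35-fold lower, -0.44), and at its signal the SD of a probe set was 0.21. Scn7a encodes Nax, a sodium-sensing channel that is not opened by voltage and is also made by Schwann cells. It had 382 and 388. Its log2 ratio of 0.02 became -0.04 under scaling to the spiked controls. It was the single member above the filter that was not lower. The 6 Schwann and satellite glia markers above the filter had a median log2 ratio of 0.10. Their directions were mixed, 4 higher and 2 lower, with ratios from -0.28 to 0.99. The part of glia in the Scn7a signal was not tested.

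Several sodium channel genes lie side by side. In the GRCr8 order of protein-coding genes Scn3a and Scn2a are adjacent, and so are Scn1a, Scn9a and Scn7a on the same chromosome. Scn2a, the Nav1.2 pore of central axons, had 51.7 and 36.3 (the latter under the floor), and Scn1a (Nav1.1) had 32.6 and 22.8, under the floor in both arrays. With 3 of these values under the floor, the ratios of these neighbours cannot be ranked, and those of Scn9a and Scn7a (-0.21 and 0.02) were closer than the SD of a probe set.

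The rest of the sodium channel genes were below the filter. Scn8a (Nav1.6, the pore of mature nodes and axon initial segments) had 30.4 without myocytes and 15.7 with myocytes, and the muscle pore Scn4a had 31.3 and 14.6. Scn10a, the tetrodotoxin-resistant channel of sensory neurons, had 80.1 and 82.2, and Scn11a, another channel of sensory neurons, had 4.41 and 8.82. The beta subunits Scn4b and Scn2b had 103 and 89.9, and 15.9 and 8.91.

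Among voltage-gated potassium channels, Kcnc4, Kcnd1 and Kcnh3 were above the filter with small differences. Kcnc4 encodes Kv3.4, a fast channel of the Shaw family, with 365 without myocytes and 315 with myocytes. Kcnd1 encodes Kv4.1, an A-type channel, with 261 and 224. Kcnh3 is a channel of the ether-a-go-go family, with 321 and 277. All 3 log2 ratios were between -0.22 and -0.21, less than the SD of a probe set at their signal (0.29 to 0.36).

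Kcnq3, a subunit of the M-channel, was just under the filter and its probe sets disagreed. Its brightest probe set had 177 without myocytes and 109 with myocytes, 1.62-fold lower (-0.69), and the other had 66.7 and 81.9 (0.30), so the mean of both was -0.20. Kcnq1, known from heart and epithelia, had 76.0 and 68.4. Of the other ether-a-go-go genes, Kcnh1 had 159.9 and 127 (-0.33) and Kcnh2, the HERG channel, 152 and 143 (-0.09).

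Other A-type and delayed rectifier genes were below the filter. Kcnd2 (Kv4.2) had 77.6 and 64.5, with both probe sets lower, at -0.27 and -0.15. Kcnd3 (Kv4.3) had 66.9 without myocytes and 124 with myocytes (0.89), but its other probe set had 55.3 and 13.0 (-0.48). The Shaker gene Kcna6 had 77.3 and 25.6, which is -0.96 with the floor, and its other probe set was under the floor in both arrays. Kcna2 had 99.7 and 84.7, Kcna5 72.8 and 49.4, Kcnc1 72.4 and 59.5, and Kcnh4 95.1 and 64.5. All 6 probe sets of Kcnc2 were under the floor. Of the 27 voltage-gated alpha subunits below the filter, 13 were lower, 5 higher and 9 under the floor in both arrays. The shares of all genes below the filter were 45.1% lower and 24.7% higher.

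The two-pore channel Kcnk6 (TWIK-2), of the family that carries background potassium current, had 295 without myocytes and 189.9 with myocytes. That was 1.55-fold lower (-0.63), on a probe set for several transcripts of the gene, while its other probe set was under the floor in both arrays (19.9 and 16.2). With the mean over both probe sets the log2 ratio was -0.32. Of the other 10, Kcnk13 had 151 and 161, Kcnk2 (TREK-1, a stretch- and lipid-gated channel) 140.0 and 104, and Kcnk3 (TASK-1, an acid-sensitive channel) 101 and 89.3. In all, 5 of the 10 were lower, 2 higher and 3 under the floor in both arrays, beside 45.1% lower and 24.7% higher of all genes below the filter.

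Inward rectifiers, which pass potassium inward more easily than outward, were all below the filter. Of 15, 9 were lower, 3 higher and 3 under the floor in both arrays, with a median log2 ratio of -0.13. All genes below the filter had a median of 0, with 45.1% lower and 24.7% higher. Kcnj6 (GIRK2), a channel opened by G proteins, had 138 without myocytes and 93.6 with myocytes (-0.56). It was lower on 3 of its 4 probe sets (-0.56, -0.72 and -0.80), and its last was under the floor in both arrays. Its partner Kcnj3 (GIRK1) had 75.7 and 113 (0.58) on its brightest probe set, 81.6 and 77.9 (-0.07) on the next and 119 and 40.5 (-1.55) on the last, so its direction depends on the probe set. Kcnj11, the pore of the ATP-sensitive channel, had 147 and 84.0 (-0.81), but 113 and 112 on its next probe set. Kcnj4 (Kir2.3) had 169.7 and 135 (-0.33).

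Calcium- and sodium-activated channels and auxiliary potassium channel subunits gave mixed values. Kcnmb4, the beta-4 subunit that makes the large-conductance BK channel slower to activate, had 303 without myocytes and 223 with myocytes (1.36-fold lower, -0.44) and was above the filter. The BK pore Kcnma1 was below it, at 65.5 and 55.9 (-0.23), with 0.08 on its next probe set. Kcnt1, a sodium-activated channel, had 175 and 158, the small-conductance channel Kcnn3 139 and 124, and the intermediate-conductance Kcnn4 109.8 and 141 (0.36). The largest ratios of auxiliary subunits were at low signal. Kcne3, a single-span partner of Kcnq channels, had 124 and 20.8 (-1.65 with the floor), Kcne1, its relative in the heart, 17.7 and 93.8 (1.24 with the floor), and Kcnip4, a calcium-binding partner of Kv4 channels, 21.3 and 68.9 (0.80 with the floor). The lower value of each of these 3 was under the floor.

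**Figure D3:**
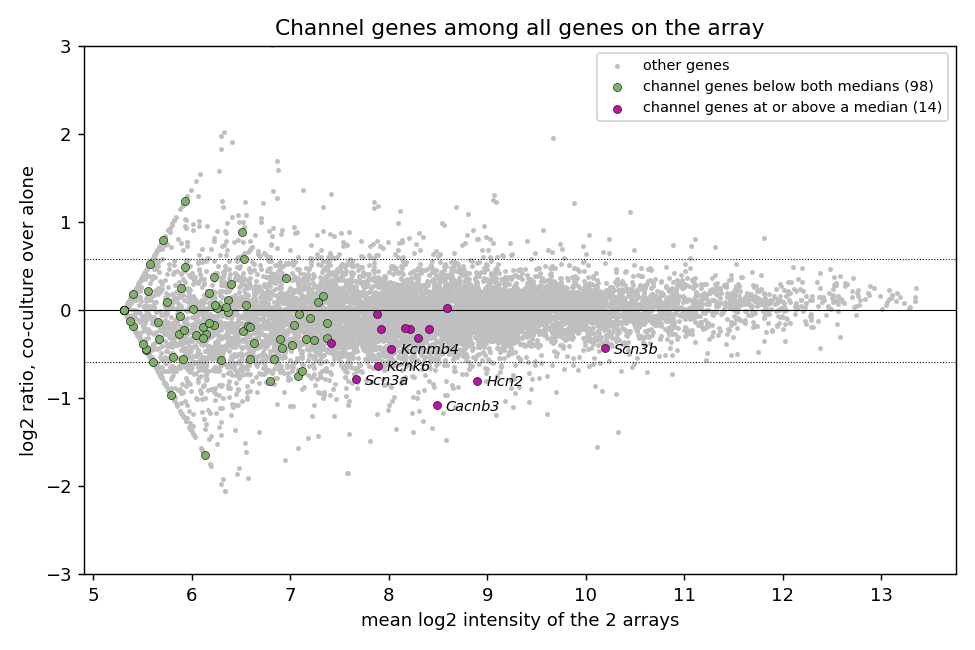
Log2 ratio, with over without myocytes (y axis), against the mean log2 intensity of both arrays (x axis) for all genes (grey) and channel genes above (magenta, 14) and below (green, 98) the signal filter. Dotted lines mark 1.5-fold, the slanted left edges come from the floor, and 1 gene lies outside the plotted range; 4 magenta points lie at or below the lower dotted line and none above the upper one.

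The 98 members below the filter were counted in the same way as all genes below it. With the floor, 42 were lower, 22 higher and 34 at the floor in both arrays, while 45.1% of all genes below the filter were lower and 24.7% higher. Of the 98, 6 were at least 1.5-fold lower and 3 at least 1.5-fold higher, which is 6.12% and 3.06%, where 9.15% and 3.36% of all genes below the filter were. The 6 were Kcne3, Kcna6, Kcnj11, Cacna1a, Kcnq3 and Cacng5, and the 3 were Kcne1, Kcnd3 and Kcnip4. As deposited, with no floor, 69.4% of the 98 were lower with myocytes, beside 63.4% of all genes below the filter. Over all 112 members the deposited intensity was lower for 81, or 72.3%, beside 56.9% of all 10411 genes. With the floor 55 of the 112 were lower and 23 higher, or 49.1% and 20.5%, beside 49.7% and 38.5% of all genes. The floor set 34 of the 112 members and 1221 of the 10411 genes to a ratio of 0, which lowers the members' shares more. That the 2 shares of lower genes are near each other therefore depends on the floor. The counts of lower and higher members became 46 and 32 under quantile normalization (42.2% and 46% of all genes). They were 51 and 27 under median scaling (39% and 49.2%) and 62 and 17 under scaling to the spiked controls (57.6% and 30.7%). Under lowess they were 46 and 66 (43.5% and 56.5%), since lowess also moved the ratios of 0 at the floor off 0. The median log2 ratio of all members was 0 with the floor and -0.32 without it, since 34 members were under the floor in both arrays and 12 in 1 array.

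Repeated measurement of a gene by several probe sets was possible for 29 members. For 16 of them at least 2 probe sets gave a ratio other than 0, of one sign in 9 and of both signs in 7. Of the 9, 7 were lower (among them Cacna1a, Cacna1b, Cacna1c, Kcnd2 and Kcnj6) and 2 were higher (Kcnip2 and Cacng2). The same counts were not made over all genes with several probe sets. Of all genes below the filter 45.1% were lower and 24.7% higher, so the 7 and 2 are not read as a trait of the members. No member had more than 1 probe set above the filter, so no difference above rests on 2 bright probe sets. Of the 14 members above the filter, 7 had a log2 ratio beyond the SD of a probe set at their signal and 4 (Cacnb3, Hcn2, Scn3a and Scn3b) beyond 2 SD, as did 26.3% and 5.06% of all genes above the filter in either direction. Without Scn3a and Cacna1i, which could only be lower, the counts were 5 and 3 of 12, beside 23.7% and 4.09% of genes at or above the median in both arrays. This SD holds the spread between probe sets only, not that between cultures or arrays.

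**Figure D4:**
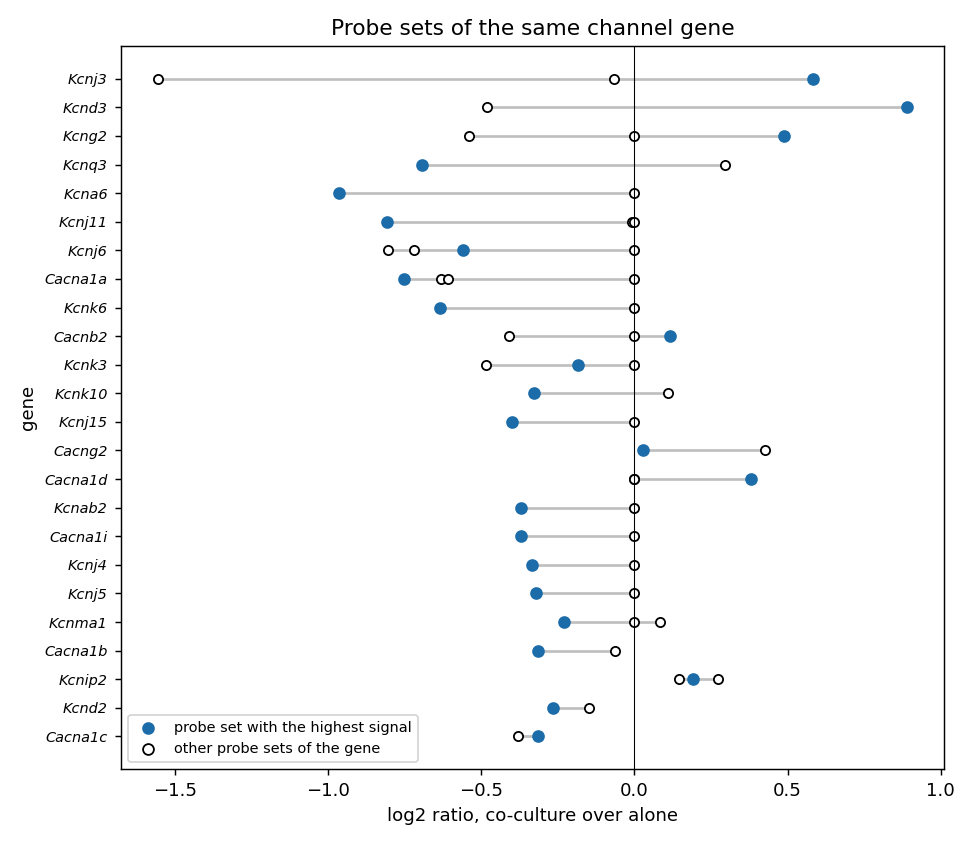
Log2 ratios (x axis) of every probe set of the 24 channel genes (y axis) that had several probe sets with at least 1 ratio other than 0. Filled points are the probe set with the highest signal and open points the others; the spread is widest for Kcnj3, from -1.55 to 0.58, and Kcnd3 and Kcnq3 also have both signs.

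Other genes of excitability outside the rule had a median nearer to that of all genes than to that of the members, though not under every alternative. Of 49 measured genes from a list of channel partners and other ion channels, 20 were above the filter. Of these 12 were lower and 8 higher, beside 52.7% and 47.3% of all genes above the filter. The median log2 ratio of the 20 was -0.10, and -0.01 under median scaling, where that of all genes above the filter was 0.07. Cask, Dlgap1, Nalcn, Nedd4l and Trpm7 passed through the array with myocytes only, which favours a higher ratio. Ank3, Cnga2 and Nrcam passed through the other array only and could only be lower. A filter at the median in both arrays leaves such genes out. The medians there were -0.13 for the list, -0.27 for the members and -0.02 for all genes. With probe sets averaged per gene the list's median was -0.13, and with the filter at the 25th percentile -0.15. There it lay nearer to the members (-0.21 in both) than to all genes (-0.03 and -0.04). The 1 gene past 1.5-fold was Dlg4 (PSD-95, a scaffold that clusters potassium channels), at 372 without myocytes and 209 with myocytes (-0.83). Of all genes above the filter, 3.3% were at least 1.5-fold lower and 1.93% higher. The axonal ankyrin Ank3, which anchors sodium and Kcnq channels at the initial segment, had 202 and 144 (-0.49). Fgf13, which binds sodium channel tails, had 1036 and 961 (-0.11), and Dpp6, an auxiliary subunit of Kv4 channels, 313 and 295 (-0.08). On the higher side was Nalcn, the sodium leak channel, with 141 and 199 (0.50).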

How the data were processed

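Rat sympathetic neuron RNA was hybridised to 2 single-colour Affymetrix Rat Expression Set 230A arrays, 1 per group, with groups taken from sample titles. The deposited file gives 1 linear intensity per probe set and array. The series' design text names dChip 1.3 and the submitters' processing notes name MAS5; which of them made the values, and how they were scaled and background-corrected, is not given here. The number of arrays limits the precision.

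Control probe sets (57 of 15923) were left out. Intensities were used as deposited, floored at the pooled 20th percentile (39.6), and compared as log2 ratios, with a signal filter at the array median. The SD of a probe set came from 749 genes with at least 2 probe sets above the filter: their log2 ratios for the 2 brightest probe sets were subtracted, and the SD of this difference was divided by the square root of 2, in 4 groups by signal. For members below the filter it came from 628 genes with 2 probe sets below it. The ratios there were floored too, so 2 probe sets under the floor in both arrays differ by 0, which can make this SD too small. Python 3.11.15, pandas 2.3.3 and statsmodels 0.14.6 were used, and the calculations were tested on simulated data. All members above the filter and the 8 nearest below it are named; other dim members are named as examples. Members and lists were chosen with earlier results of these data known. No protein sequence was used here. Alternatives were other normalizations, floors, filters and probe set choices.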

Additional observations from a re-analysis of the deposited data

How the results depend on the processing

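Direction under the alternatives run was followed for 22 channel genes, all members above the filter and the 8 nearest below it. These kept their direction, apart from Cacna2d1 and Scn7a, both near 0. Other named members were not followed in this way, and some, such as Kcnj3 and Cacnb2, had probe sets of both signs. The median of members above the filter (-0.34) was -0.21 when probe sets were averaged per gene, -0.21 when the filter was set at the 25th percentile and -0.80 at the 75th. Those filters left 69 and 3 members. At the 25th percentile 10 were at least 1.5-fold lower and 3 higher (6.62% and 2.96% of all genes there), and at the 75th 2 and 0 (2.15% and 1.53%). With the median filter 1 member was 2-fold lower and 0 higher. The median of all members was -0.046 after scaling to spiked controls (added after seeing the data), -0.32 with no floor, -0.16 with a pseudocount of the floor value and -0.042 with the brightest probe set in neurons alone. Other excitability genes had -0.010 under median scaling, where all genes above the filter had 0.07. Kcnk6 fell short of 1.5-fold under quantile normalization, median scaling, lowess, the pseudocount and the probe set mean, which leaves 3 members. Signal limits these values: most members lie where the SD of a probe set is 0.36, which the floor can make too small. No paired analysis was possible because there is 1 array per condition.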
